A study of Mus musculus with 6 samples.

Results

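CHD7 regions of the cardiac neural crest are described here: stretches of chromatin that were enriched by a CHD7 antibody in both ChIP-seq libraries and in neither library of input chromatin. A region was the merged extent of overlapping CHD7 peaks that held a peak of each library, on chromosomes 1 to 19, X and Y, and that touched no input peak. Of 19947 regions found in both CHD7 libraries, 292 (1.46%) overlapped an input peak and were left out, which left 19655. The number rests on the authors' threshold: 2967 regions remained when both peaks had to reach a −log10 q of 10, and library 1 alone, without library 2, gave 31556. The cells came from mouse embryos at stage E10.5, in the middle of gestation, of a cross of Wnt1-Cre2 males with mTmG females. In these embryos Cre, driven from Wnt1 sequences active in the dorsal neural tube and premigratory crest, switches cells and all their descendants to green fluorescence. Fluorescent cells of pharyngeal arches 3 to 6 were sorted, so the libraries hold every crest derivative present there, and all libraries share this genotype, stage and sort. There were 2 CHD7 libraries and 2 input libraries. No label ties the libraries to different litters or to different sorts, so a p-value here reflects the spread of these samples alone, and that spread may be technical.

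CHD7 is an ATP-dependent chromatin remodeller of the CHD family: it uses ATP to slide nucleosomes, and its chromodomains bind methylated lysine 4 of histone H3, a mark of promoters and enhancers. Loss of a CHD7 copy causes CHARGE syndrome, whose heart, ear and craniofacial defects include structures built by the neural crest. Crest cells that pass through the caudal arches contribute to the septum of the outflow tract and to the smooth muscle of the great arteries. A peak marks where the antibody enriched DNA, and shows neither that the gene beside it is transcribed nor that CHD7 acts on it.

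The upstream sequences of 6 genes are shown, because their regions were among the highest in rank (H2bc1, Zfp869, Spata5, Mkks and Zfp280d) or lay in the largest cluster (H1f3). They span GC-poor promoters with CCAAT and TATA boxes and GC-rich promoters with neither. Each is the 250 bases before the annotated start, from RefSeq on GRCm38.p6, written along the gene's own strand. H2bc1, a histone H2B gene, lies at chr13:23934157-23934406 on the minus strand, and H1f3, a linker histone gene, at chr13:23554782-23555031 on the plus strand. Zfp869, a zinc finger gene, lies at chr8:69716903-69717152 on the minus strand, and Spata5, an AAA-type ATPase gene, at chr3:37419700-37419949 on the plus strand. Mkks, a chaperonin-like gene, lies at chr2:136891407-136891656 on the minus strand, and Zfp280d, another zinc finger gene, at chr9:72274638-72274887 on the plus strand. The printed bases need not lie in a CHD7 region. The H2bc1 region (chr13:23933596-23934128) lies outside its stretch, and the Zfp280d region (chr9:72274358-72274960) covers all of its own. Those at Zfp869 (chr8:69715778-69716932), Spata5 (chr3:37419910-37420775) and Mkks (chr2:136891545-136892177) cover only a part. Capitals mark matches on either strand to the TATA box (TATAAA), the CCAAT box, the GC box (GGGCGG), an ETS core (CCGGAAG) and the cAMP response element (TGACGTCA).
H2bc1: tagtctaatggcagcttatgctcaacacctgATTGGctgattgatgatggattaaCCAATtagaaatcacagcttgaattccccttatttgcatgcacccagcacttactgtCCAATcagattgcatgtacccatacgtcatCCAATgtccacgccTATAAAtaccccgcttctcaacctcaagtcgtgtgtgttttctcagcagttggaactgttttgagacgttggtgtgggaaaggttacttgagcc
H1f3: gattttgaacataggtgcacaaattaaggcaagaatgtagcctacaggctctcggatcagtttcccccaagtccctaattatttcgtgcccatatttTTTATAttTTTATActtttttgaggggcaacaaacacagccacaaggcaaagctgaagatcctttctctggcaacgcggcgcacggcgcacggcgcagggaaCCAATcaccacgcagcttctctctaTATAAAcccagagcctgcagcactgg
Zfp869: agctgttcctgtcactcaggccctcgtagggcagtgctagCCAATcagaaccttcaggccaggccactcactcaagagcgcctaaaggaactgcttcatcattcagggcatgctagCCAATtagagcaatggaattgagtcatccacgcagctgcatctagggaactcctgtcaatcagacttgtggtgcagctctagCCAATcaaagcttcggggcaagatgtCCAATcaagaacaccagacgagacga
Spata5: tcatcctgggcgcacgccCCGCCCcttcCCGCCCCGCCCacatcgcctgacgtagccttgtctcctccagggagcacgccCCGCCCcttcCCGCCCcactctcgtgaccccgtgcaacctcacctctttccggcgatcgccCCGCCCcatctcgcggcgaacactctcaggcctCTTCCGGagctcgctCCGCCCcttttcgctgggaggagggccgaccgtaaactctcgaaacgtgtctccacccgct
Mkks: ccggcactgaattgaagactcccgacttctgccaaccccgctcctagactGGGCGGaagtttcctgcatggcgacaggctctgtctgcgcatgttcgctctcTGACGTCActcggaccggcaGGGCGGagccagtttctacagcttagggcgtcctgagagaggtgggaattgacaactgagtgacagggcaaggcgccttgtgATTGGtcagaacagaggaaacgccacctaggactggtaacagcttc
Zfp280d: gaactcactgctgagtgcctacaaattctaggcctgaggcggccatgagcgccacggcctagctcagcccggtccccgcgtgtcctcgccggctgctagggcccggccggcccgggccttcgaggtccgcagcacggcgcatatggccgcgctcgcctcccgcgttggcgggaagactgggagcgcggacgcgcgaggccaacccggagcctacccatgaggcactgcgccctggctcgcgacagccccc

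In the regions of highest rank the summits lay beside the start and not on it. At H2bc1 the main summit, the one of highest fold in the region, was 285 bp downstream of the start in library 1 and 284 bp in library 2, and at Zfp869 it was 211 and 205 bp downstream. At Spata5 it was 169 and 189 bp downstream. At Zfp280d it lay upstream, at -215 and -208 bp. At Mkks it lay at -437 and -445 bp, which is 249 and 257 bp downstream of the start of Slx4ip, the divergent neighbour. The libraries placed these summits no more than 20 bp apart. At H1f3, a short gene, the main summit was 768 and 729 bp downstream.

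The same position recurred across the regions. Of the main summits within 1 kb of an annotated start, 8468 in library 1 and 8509 in library 2, 46.6% and 48.2% lay 100 to 400 bp downstream. A further 15.7% and 15.9% lay 100 to 400 bp upstream, and only 5.23% and 5.65% lay within 100 bp of the start. Per 100 bp this came to 442, 222 and 1315 summits in library 1 for the upstream, central and downstream windows, and to 451, 241 and 1368 in library 2, so the density fell to a trough at the start in both. Regions with a single summit in each library showed the same order, with 47.5% and 48.8% downstream and 4.50% and 4.67% at the start. Starts were known for 17491 protein-coding genes (80.3%), which have 21262 annotated starts. The input lists had 9 and 23 summits within 1 kb of a start, too few for a profile.

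**Figure D1:**
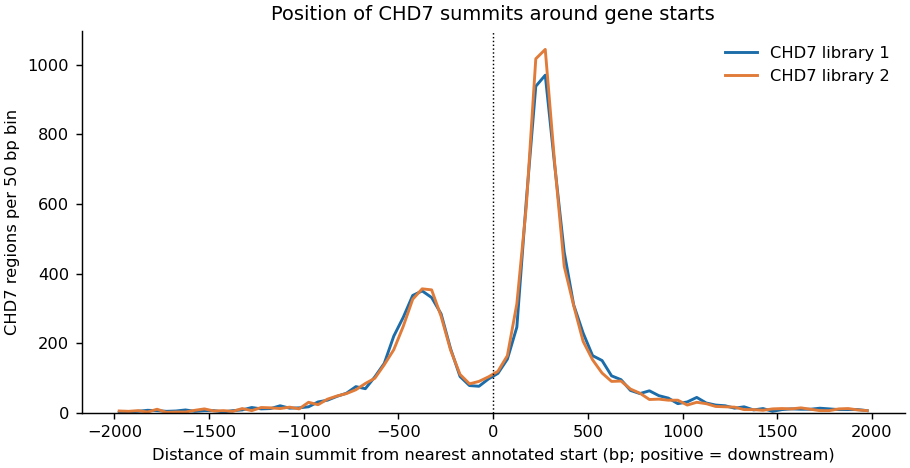
Number of CHD7 regions by the distance of the main summit from the nearest annotated start, in bins of 50 bp, for each CHD7 library; positive distances are downstream. Both libraries show a high maximum downstream, a lower one upstream and a trough at the start itself.

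The side of the start was the same in both libraries for nearly all regions. Of 8409 regions with both main summits within 1 kb of a start, 5252 (62.5%) had both downstream, 2598 (30.9%) had both upstream and 557 (6.62%) had them on opposite sides. Where a region had 2 summits nearest to the same start, the start fell between them in 652 of 1420 regions of library 1 (45.9%) and 626 of 1418 of library 2 (44.1%), with median spacings of 520.5 and 511.5 bp. A start also lay between the main summits of 1281 of the 2115 pairs of neighbouring regions no more than 1 kb apart (60.6%). Among 11078 genes longer than 10 kb with a known strand, 5117 had a region at the start only, 434 at the start and the far end and 212 at the far end only. Of these last, 77 had another annotated start within 2 kb of that end. The positions around starts were looked at after the peak lists had been seen.

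Fold enrichment at the summit is the value of the authors' peak caller, and regions were ranked by it. Fold ran from 1.53 to 12.5 in library 1 and from 1.58 to 12.3 in library 2, with medians of 3.45 and 3.40 over the regions. To rank regions, the percentile of the fold among all peaks of its own library was averaged over the libraries. Fold of the same region in libraries 1 and 2 had a Spearman rho of 0.611 across 19655 regions, and width one of 0.587; regions are not independent replicates, and both measures come from the same peak calls. The depth of the libraries is unknown, since the lists hold no read counts.

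With rank, regions came closer to genes and became broader and more exactly placed. From the lowest to the highest decile of the percentile, the share of regions within 1 kb of either end of a protein-coding gene went from 41.3% to 61.7%. The share with 2 or more summits in both libraries went from 6.77% to 17.1%, and the median width from 446.5 to 725 bp. Both shares were highest in the ninth decile, at 62.7% and 18.4%. The median distance between the main summits of the libraries fell from 112 to 31 bp. Membership of clusters went the other way, from 18.7% to 6.92%. Only main summits within 1 kb of a start enter the next shares, 1075 in each library in the highest decile and 519 and 530 in the lowest. Of these, 56.9% and 57.3% lay 100 to 400 bp downstream in the highest decile and 28.3% and 29.4% in the lowest. Width, summit number and fold come from the same reads, so these relations are descriptions.

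**Figure D2:**
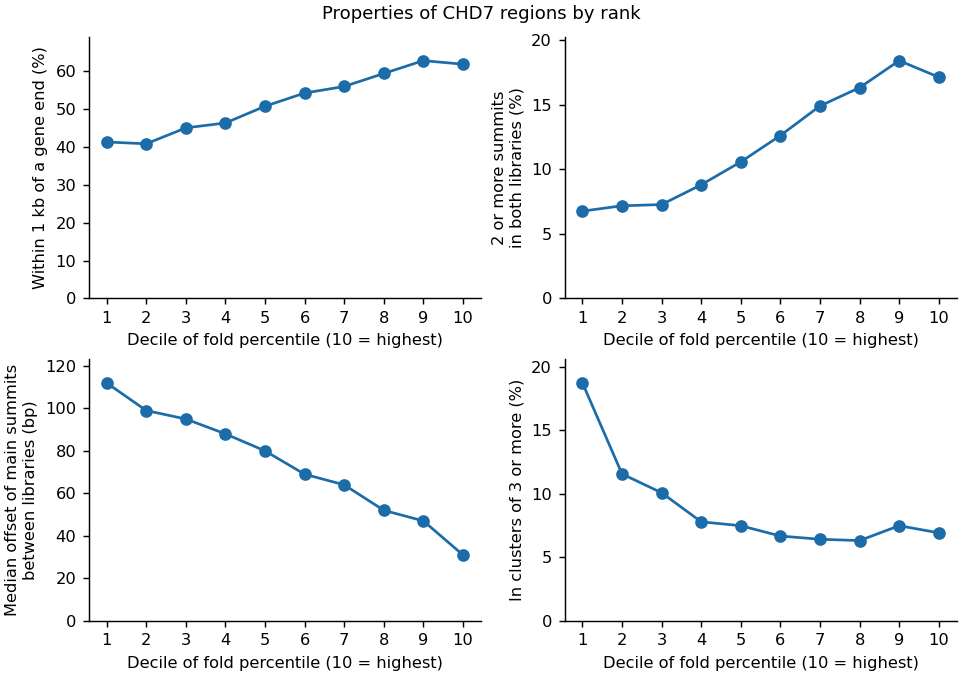
Share of CHD7 regions within 1 kb of a gene end, share with 2 or more summits in both libraries, median offset of the main summits between libraries (bp) and share in clusters of 3 or more, by decile of the mean fold percentile, where 10 is the highest. The shares near gene ends and with several summits are larger, and the offset smaller, in the upper deciles, while clustered regions are most frequent in the lowest decile.

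Peaks of the CHD7 lists differed from those of the input lists in width and place. The median width was 463 and 470 bp in the CHD7 libraries and 109 and 110 bp in the input libraries. Within 1 kb of a gene end lay 42.5% and 46.7% of CHD7 peaks, against 3.77% and 5.66% of input peaks, a difference of 39.9 percentage points between means of 44.6 ± 2.99 and 4.72 ± 1.34 (SD, 2 libraries each). Peaks with 2 or more summits made up 13.8% and 15.1% of the CHD7 lists and 20.6% and 18.0% of the input lists. The groups did not overlap in any of these measures, and each difference had a two-sided exact permutation p of 0.333, the smallest that 2 against 2 libraries can give. The input lists were far shorter, with 451 and 512 peaks against 31873 and 26927 in the CHD7 lists. With so few peaks, 34 of 21772 protein-coding genes (0.156%) had an input peak within 1 kb of an end.

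**Figure D3:**
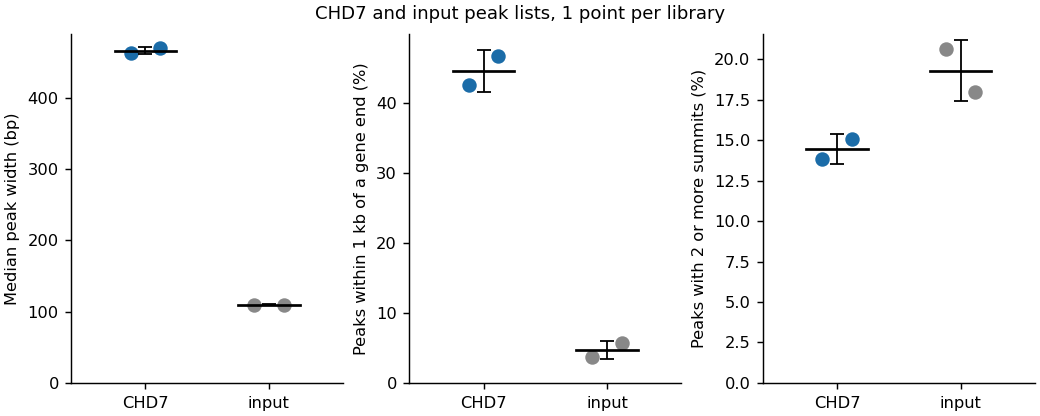
Median peak width (bp), share of peaks within 1 kb of a gene end and share of peaks with 2 or more summits in each CHD7 and input library; points are libraries, lines are group means and bars the SD of 2 libraries. CHD7 peaks lie far above input peaks in width and closeness to gene ends and below them in the share with several summits.

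The regions removed for input overlap stood high in the CHD7 ranking. Their median percentile was 95.6, and 103 of the 292 fell in the highest 1 percent, against 145 of the 19655 that were kept. They mostly lay away from gene ends, with 19 (6.51%) near a gene end. The regions of highest fold among them lay 203 and 80.0 kb from Asmt on the X chromosome, with folds of 19.7 and 20.7 and of 19.8 and 19.5. Of the 19655 kept regions, only 105 lay within 10 kb of an input peak. None of these was among the 20 highest-ranked at gene ends or the 15 elsewhere, which says little at so low a share.

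Gene ends held 10175 of the 19655 regions (51.8%), gene bodies 4739 (24.1%) and intergenic sequence 4741 (24.1%). Median percentiles were 63.5 at gene ends, 49.7 in gene bodies and 56.7 between genes. Regions at gene ends were the widest, with a median of 568 bp against 521.5 and 548.5 bp, and 13.8% had several summits against 9.69% and 10.4%. Beyond 1 kb, 2876 regions lay within 10 kb of a gene end, 3277 at 10 to 50 kb, 1357 at 50 to 100 kb and 1970 (10.02%) farther away. The rank showed no further fall with distance, with medians of 49.1, 54.0, 53.4 and 56.6 in these bands. In all, 1841 gene-end regions (18.1%) lay near 2 or more genes, such as divergent pairs, and cannot be given to either gene. They ranked like those near a single gene, with medians of 64.3 and 63.4.

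Of the 20 regions of highest rank at gene ends, 3 lay at histone genes. The highest of all lay at H2bc1, with an end of H2ac1, its divergent H2A neighbour, within 1 kb, and had folds of 11.3 and 10.7. H4f16, a histone H4 gene, had 9.12 and 9.25, and H4c11, another, had 7.87 and 7.30. The region of Fbl, which encodes the methyltransferase of ribosomal RNA, had 7.94 and 7.75 and is shared with the kinase gene Dyrk1b. That of Rbmxl1, which encodes an RNA-binding protein, had 8.74 and 8.17 and is shared with Slc10a7. Vat1l had 8.18 and 10.4, Zfp280d 10.3 and 8.26, and Klhl24 9.75 and 7.84. The 20 also included Pcnt, which encodes the centrosome protein pericentrin (7.82 and 7.43), Gpc2, a cell-surface glypican (7.78 and 7.44), Rdm1 (7.58 and 7.70), Ppp2r2a, a regulatory subunit of protein phosphatase 2A (7.46 and 7.61), and Bola1, a mitochondrial protein gene (7.95 and 7.18). No fold of the 20 regions was below 7.18 in either library. The order depends on the measure: ranked by −log10 q, 4 of these 20 regions stayed among the 20 highest.

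Away from gene ends, 15 regions of highest rank are named by the nearest protein-coding gene, which need not be the gene they act on. Of these, 7 lay in the body of a protein-coding gene, which need not be the gene with the nearest end. The nearest ends were those of Acvr1b, an activin receptor gene (folds of 12.5 and 11.97, end at 16.9 kb), and Kif6, a kinesin gene (10.4 and 11.6, 102 kb). Sorcs2, a sortilin-family receptor gene (11.1 and 10.6, 92.3 kb), and Bicc1, which encodes an RNA-binding protein (10.6 and 10.4, 37.3 kb), were others. The rest were Helb, a DNA helicase gene (11.1 and 10.7, 130 kb), Gmfg-ps (12.1 and 11.1, 20.5 kb) and D7Ertd443e (10.7 and 12.3, 95.8 kb). Sema6a, a transmembrane semaphorin gene, had an intergenic region 41.7 kb away with folds of 8.29 and 11.6, the widest gap between libraries in this set. Of the 15, 3 lay at genes for small nuclear RNAs, listed under Kif2c, Parp16 and Taf12. All 15 had a single summit in each library, and 7 stayed among the 15 highest when ranked by −log10 q.

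Genes for small nuclear RNAs, a class that includes the RNAs of the splicing machinery, held the highest-ranking class of regions. The 47 regions within 1 kb of an snRNA gene and away from protein-coding ends had a median percentile of 97.3, and 33 of them (70.2%) were in the highest decile. Their folds ran from 2.25 to 11.2 with a median of 5.78 in library 1, and from 2.56 to 9.87 with a median of 5.90 in library 2. Rnu5g, a U5 gene, had 9.76 and 9.87, Rnu11, a U11 gene of the minor spliceosome, 9.72 and 9.52, and Rnu2-10, a U2 gene, 7.61 and 8.11. Gm25099, Gm23287 and Gm23143, 3 snRNA genes of chromosome 4 that stand near each other, had 11.2 and 9.68, 9.22 and 7.85, and 8.20 and 7.64. The regions covered few of the annotated copies, 72 of 997 snRNA genes (7.22%). Genes of this class have near-identical copies, and the treatment of reads that match several places was not given in the sources used.

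Genes for transfer RNAs, the adaptors of translation, were covered more fully. Of 403 tRNA genes, 251 (62.3%) had a region within 1 kb, against 44.1% of protein-coding genes (9598 of 21772). The 128 tRNA regions away from protein-coding ends had a median percentile of 70.5, were broad, at 906 bp, and 45.3% lay in clusters. An alanine tRNA gene of chromosome 2, n-TAcgc8, had folds of 6.52 and 9.33, and a leucine tRNA gene of chromosome 8, n-TLcag5, 7.23 and 6.64. Regions at long noncoding RNA genes (960, median 55.3), pseudogenes (117, 58.4), small nucleolar RNA genes (20, 44.5) and microRNA genes (38, 41.0) ranked nearer to or below the 52.2 of the 8166 regions near no listed gene. The microRNA region of highest rank lay 976 bp from Mir129-1, with folds of 5.26 and 5.01. These classes were formed after the highest regions had been seen.

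**Figure D4:**
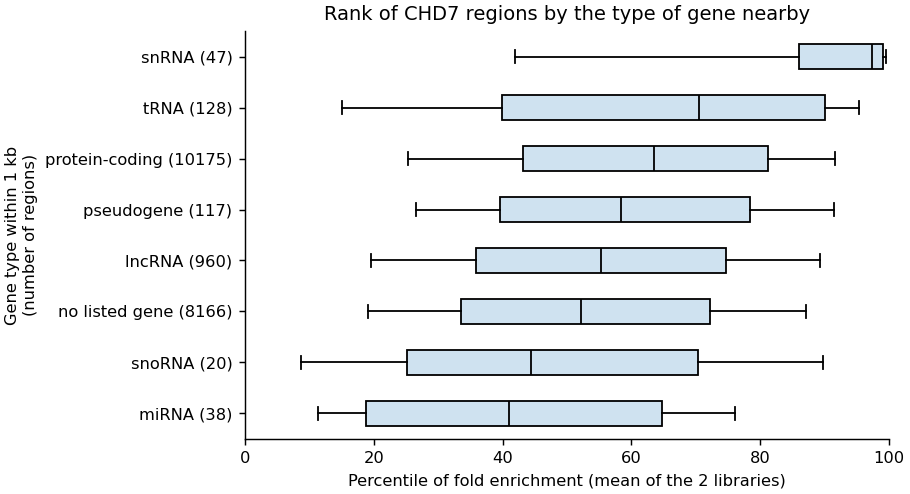
Mean fold percentile of CHD7 regions by the type of gene within 1 kb, with protein-coding ends taken first; boxes show the median and quartiles, whiskers percentiles 10 and 90, and numbers the regions. The snRNA class lies highest, with a median of 97.3, and the tRNA class second, at 70.5.

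Most regions stood alone, and the largest cluster lay at histone genes of chromosome 13. With neighbours up to 10 kb apart joined, 12532 regions (63.8%) were alone, 2683 pairs formed, and 518 clusters of 3 or more held 1757 regions (8.94%). That share was 2.34% with 5 kb and 28.97% with 25 kb as the largest gap, and 3.00% among regions of −log10 q of at least 10. The largest, at chr13:23530447-23586101, held 16 regions, of which 15 lay at histone genes of all 5 classes, such as H1f3, H2ac8, H2bc8, H3c8 and H4c8. Its folds ran from 1.95 to 7.05 in library 1 and from 1.72 to 6.98 in library 2, so members of the same cluster differed widely. A further histone cluster, at chr13:23738371-23764601, had 9 regions, all at gene ends. A set of 10 regions at chr13:21896404-21945824 covered 16 tRNA genes beside Zfp184, and 8 at chr13:23424076-23464128 covered 15 tRNA genes beside Btn1a1. At chr12:54710083-54738919, 6 regions covered 6 snRNA genes and ranked high, with a median percentile of 96.7. Of the 39 clusters of 5 or more, 9 held a region near a tRNA gene, 3 one at a histone gene and 29 neither. The second largest, 11 regions at chr6:47744762-47788675, held no protein-coding gene. Another of 10, at chr6:47655618-47685561, lay at 6 protein-coding genes named only by number, such as Gm36327.

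Regions with the most summits were broad and ranged widely in fold. Of the regions, 17296 had 1 summit in at least 1 library, 2193 had 2 in both, 149 had 3, 16 had 4 and 1 had 5, taking the lower number of the libraries. The region with 5 lay at Mir17hg, the host gene of the miR-17 to miR-92 cluster of growth-related microRNAs, with folds of 2.40 and 2.41 and a percentile of 6.75. Those with 4 included Ide, which encodes the insulin-degrading enzyme (3.201 and 3.36), the imprinted gene Mest (2.56 and 2.097), the splicing factor gene Srsf3 (2.11 and 2.23) and Kdm5a, a histone H3 lysine 4 demethylase gene (3.97 and 4.02). They also included an intergenic region with Zfp239, a zinc finger gene, as the nearest gene, with folds of 4.28 and 5.68 and a percentile of 91.8, and one nearest to the odorant receptor gene Olfr750, with 4.40 and 4.12. The widest region lay within 1 kb of ends of the H2A, H2B and H4 genes H2ac23, H2bc23 and H4c17. It was 3108 bp wide, with 4 summits in each library and folds of 4.18 and 4.25. The median width was 552.5 bp and 31 regions were wider than 2 kb. Calls of several summits recurred in part: 52.0% of the regions with several in library 1 had several in library 2, against 13.0% of those with 1. In all, 2359 regions (12.002%) had several in both libraries, and 33.1% in either.

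Long genes collected the most regions within their span. Lrmda had 22, Dnm3, a dynamin gene, 16, Auts2, a neurodevelopmental gene, 13 and Nfia, a nuclear factor I gene, 11. Akap6, Rad51b, Mecom and Sox5 had 10 each, and Sox6, like Sox5 a SoxD factor gene, had 9. Sox5 is expressed in premigratory crest. Of the 280 genes of 450 kb or more, 64 had no region in their span and the median was 2, or 0.224 per 100 kb, against 2.12 per 100 kb in Lrmda and 3.23 in Dnm3.

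Neural crest specifiers, the transcription factors that set and hold crest identity, had a CHD7 region at an end about as often as all genes. At an end lay a region for 11 of 24 members (45.8%), close to the 44.1% of all protein-coding genes, while 21 of 24 had at least 1 region assigned as the nearest gene within 100 kb, against 50.7% of all genes. Here and in the following lists, assigned regions can include those at an end. Assignment depends on how far neighbouring genes lie, and the share of all genes was not matched for this. With peaks of −log10 q 10 or more, 0 of 24 had one at an end, against 10.52% of all genes. Those at the ends were of low rank, with a median best percentile of 28.6 against 69.9 for all genes with one. Sox5 had the highest region, with folds of 4.70 and 4.58 at 52.1 kb, before the proto-oncogenes Mycn (4.55 and 4.31 at 30.7 kb) and Myc (4.79 and 4.11 at 47.4 kb). Ets1, a factor of migrating cardiac crest, had 7 assigned regions, with 3.75 and 3.75 at an end and 3.94 and 4.16 at 65.8 kb. Snai2, a repressor of epithelial genes, had 3.49 and 2.94 at an end. Sox9 had 2.14 and 2.24 at an end and 2.82 and 3.46 at 23.5 kb. Foxd3, Tfap2a and Twist1 had assigned regions only, and Sox10, Pax7 and Zic1 had none. In this and the following lists, the members of highest percentile and up to 3 without a region are named; others are given for their role and were chosen after their values had been seen.

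Cardiac crest and outflow tract genes had a region at an end in 14 of 32 cases (43.8%), as close to the background, and an assigned one in 17. Itgb1, which encodes the beta-1 integrin subunit, had folds of 5.10 and 5.51 at an end. The cardiac cofactor gene Zfpm2 had 4.82 and 4.87 at 58.4 kb, Tgfbr1, a TGF-beta receptor gene, 4.97 and 4.63 at 22.7 kb, and Bmpr1a, a BMP receptor gene, 4.79 and 4.17 at an end. Tbx1, Hand2 and Gata4 were among the 15 with no region. Arch patterning genes had 9 of 27 at an end (33.3%), and 14 of 27 (51.9%) without CHD7 library 1, against 49.0% of all genes. They were led by Pbx3, a homeodomain cofactor gene, with 5.06 and 4.23, while Six4 had 4.64 and 3.21 at 9.62 kb. Hox genes of paralogue groups 1 to 5, which give arches their position along the axis, had 3 of 15 at an end. These were Hoxd1 (3.44 and 3.35), Hoxa2 (2.00 and 2.07) and Hoxa5 (2.44 and 2.52). Without library 2 the Hox count was 5 of 15 (33.3%), against 51.1% of all genes.

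Among signalling pathways, hedgehog genes had the highest share at the ends, 14 of 17 (82.4%, against 44.1% of all genes). They included the signal transducer Smo (3.39 and 4.72), the receptor Ptch1 (2.91 and 2.84), all 3 Gli factors (from 2.47 to 3.00) and the inhibitor Sufu (3.97 and 4.12). Shh, Ihh and Hhip had none. With peaks of −log10 q 10 or more the hedgehog count was 2 of 17 (11.8%), against 10.52% of all genes. The median best percentile at the ends of hedgehog genes was 56.5, against 69.9 for all genes with a region there. Hhat, the acyltransferase of hedgehog ligands, had 3.99 and 4.19 at an end and 7.21 and 7.17 in its gene body, 24.9 kb from an end. For BMP and TGF-beta the count was 19 of 30 (63.3%), and 3 of 30 with peaks of −log10 q 10 or more, against 10.52% of all genes, with the activin receptor gene Acvr2b at 4.47 and 4.26 and the ligand gene Bmp2 at 3.33 and 2.62. Of the WNT genes, 13 of 31 (41.9%) had one, with the receptor gene Fzd4 at 3.89 and 4.23 and Ctnnb1, which encodes beta-catenin, at 3.71 and 3.83. Wnt11, a ligand of the outflow tract, had 6.45 and 5.21 at 19.1 kb, and Tcf7l2, a nuclear effector gene, 5.37 and 4.64 at 95.4 kb. NOTCH genes had 9 of 20 (45.0%), and their highest regions lay off the ends, at Dll4, a ligand gene (5.35 and 6.47 at 1.54 kb), and Rbpj, the pathway's DNA-binding factor (4.97 and 6.70 at 5.34 kb). Retinoic acid genes had 5 of 17 (29.4%), with the receptor gene Rxra at 3.73 and 3.40. Without library 1 their count was 8 of 17 (47.1%), against 49.0% of all genes. The WNT and NOTCH shares were close to the 44.1% of all genes. With 1 library left out the NOTCH count was larger, at 14 of 20 without library 2, against 51.1% of all genes, and 13 of 20 without library 1, against 49.0%. The WNT count was then 18 of 31 (58.1%) in both cases.

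Semaphorins, plexins and other guidance genes, which steer crest cells and axons, had a region at an end in 18 of 34 cases (52.9%, against 44.1% of all genes) and an assigned one in 27 (all genes, 50.7%). Within 500 bp of an end the count was 10 of 34, or 29.4% against 40.9% of all genes, and with peaks of −log10 q 10 or more it was 0 of 34 against 10.52%. At the ends Plxna1, a semaphorin receptor gene, had folds of 6.07 and 4.02, Robo1, a SLIT receptor gene, 3.43 and 3.67 and Sema3c, a crest attractant of the outflow tract, 3.201 and 3.08. The highest regions were again distal: beside that of Sema6a, Slit3 had 7.93 and 7.04 at 10.3 kb and Sema5a 6.59 and 6.89 at 22.5 kb. Smooth muscle and matrix genes had 13 of 20 (65.0%), and 1 of 20 with peaks of −log10 q 10 or more, with the integrin gene Itga8 at 4.97 and 4.40 at an end and Mrtfb, an SRF coactivator gene, at 4.89 and 6.14 at 19.2 kb. The contractile genes Acta2, Tagln and Myh11 had none.

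At gene ends, regions of chromatin and growth genes ranked above those of the preceding lists. Median best percentiles at the ends were 77.0, 77.6, 80.3 and 77.2 for remodellers, histone-modifying enzymes, ribosome biogenesis and cell cycle. The value for all genes with a region at an end was 69.9, and the preceding lists ran from 9.94 to 57.7. The cell type and adult tissue lists that follow, where they had such regions, ran from 7.58 to 77.9. The highest of these was that of mesoderm and skeletal muscle markers, from 3 genes. ATP-dependent remodellers had a region at an end in 15 of 22 cases (68.2%), against 44.1% of all genes, the background of the following counts too. Atrx had 5.51 and 6.69, Ep400 5.11 and 5.205, and Hells 4.64 and 6.23. Chd7 itself had no region at an end and 4 assigned, the highest with 3.74 and 3.46 at 22.97 kb. Chd2 had 15 assigned regions, the highest with 5.14 and 6.14 at 52.8 kb. Histone-modifying enzymes had 20 of 28 (71.4%), with the acetyltransferase gene Kat7 at 6.04 and 6.71, the deacetylase gene Hdac2 at 6.66 and 5.72 and Kmt2b, a histone H3 lysine 4 methyltransferase gene, at 6.24 and 5.19. Ribosome biogenesis genes had 23 of 27 (85.2%). Behind Fbl stood Nolc1 (5.31 and 5.02), Bop1 (5.13 and 4.89) and Tcof1 (5.88 and 4.38), the gene of Treacher Collins syndrome, a crest disorder. Cell cycle genes had 21 of 28, with the replication helicase genes Mcm3 (6.59 and 7.19), Mcm5 (5.59 and 5.60) and Mcm7 (5.06 and 5.62) highest.

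**Figure D5:**
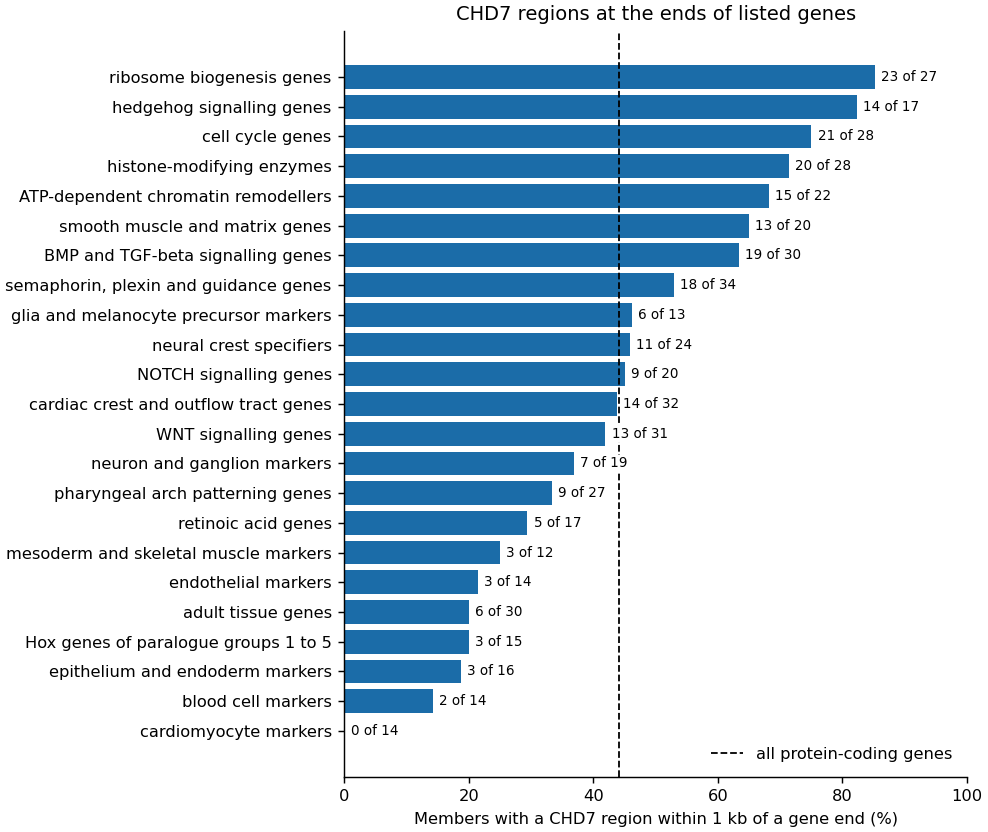
Share of the members of each gene list with a CHD7 region within 1 kb of either gene end, with counts; the dashed line is the share over all protein-coding genes, 44.1%. Ribosome biogenesis and hedgehog genes have the highest shares and cardiomyocyte markers have none.

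Markers of cell types showed where regions did and did not fall. Of 10 crest markers, 3 (Sox9, Ets1 and Snai2) had a region at an end, against 44.1% of all protein-coding genes. Glia and melanocyte precursor markers, which mark crest derivatives, had 5 of 6, among them Erbb3, Mitf and Kit, and neuron and ganglion markers 2 of 6 (Elavl4 and Tubb3). For types outside the crest, endothelium had 2 of 5 (Kdr and Erg), blood 2 of 5 (Klf1 and Spi1), epithelium and endoderm 2 of 5 (Epcam and Grhl2), cardiomyocytes 0 of 5 and skeletal muscle 0 of 3. The short lists, apart from that of crest, are picked members of longer lists. In the longer list of glia and melanocyte precursors the count was 6 of 13 (46.2%), close to the 44.1% of all genes. Other counts at an end were 7 of 19 for neurons and ganglia, 3 of 14 for endothelium and 2 of 14 for blood. Epithelium and endoderm had 3 of 16, mesoderm and skeletal muscle 3 of 12 and adult tissue genes 6 of 30. Cardiomyocyte markers had 0 of 14, with Nkx2-5 (2.81 and 3.43 at 6.90 kb) and Myl3 (4.62 and 5.11 at 11.3 kb) assigned. The part of other cell types in the sort was not tested. Without CHD7 library 1, where 49.0% of all genes had a region at an end, neuron and ganglion markers had 12 of 19 (63.2%). Mesoderm and skeletal muscle markers then had 5 of 12 (41.7%) and cardiomyocyte markers 1 of 14 (7.14%). Without library 2, endothelial markers had 5 of 14 (35.7%) and blood markers 4 of 14 (28.6%), against 51.1% of all genes. Some distal regions of high rank lay near genes of these lists, at Ebf2 (8.10 and 7.64 at 44.2 kb) and Neurog1 (6.07 and 6.01 at 19.1 kb).

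Promoters with a region were rich in CpG. Of 21262 promoter windows, each from 250 bases before to 50 after a start, 6552 (30.8%) overlapped a region. These had a median GC content of 62% and 23 CpG dinucleotides, against 53% and 6.5 for those without. Here and for the motifs, windows without a region include those of starts whose region lay wholly beyond the 50 bases downstream. The share overlapped went from 1.79% of windows with 0 to 4 CpG and 13.1% with 5 to 9, through 37.5% and 49.7% with 10 to 14 and 15 to 19, to 53.4% with 20 to 29 and 53.7% with 30 or more. The rank of the regions did not follow CpG in the same way, with median percentiles between 68.9 and 73.1 from 5 CpG upwards. H2bc1 and Zfp869, with 7 and 8 CpG, thus stood among the less commonly overlapped promoters, and Zfp280d, with 37, in the CpG-richest group.

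Motifs were counted in the same windows on both strands. TATAAA was present in 6.12% of windows with a region and 12.6% of all windows, CCAAT in 37.0% and 38.2%, and GGGCGG in 66.9% and 46.2%. The ETS core CCGGAAG was present in 21.6% and 11.6%, AAGATGGC, the core of YY1 sites, in 5.63% and 3.05%, and TGACGTCA in 3.95% and 2.23%. Among the CpG-rich windows, those with 20 CpG or more, 4088 had a region and 3552 did not. There the ETS core was in 24.2% of those with a region and 15.8% of those without, and the YY1 core in 5.87% and 3.13%. GGGCGG turned the other way, with 78.1% and 85.2%, and CCAAT stayed close, with 32.6% and 35.1%. The general E-box CANNTG, which includes CACGTG, was in 56.1% and 55.8%, and CACGTG alone in 13.2% and 10.1%. The printed Spata5 promoter has 7 GC boxes, of which a pair share a base, and 1 ETS core, those of H2bc1 and Zfp869 have 4 CCAAT boxes each, H1f3 has 3 TATA matches, and Zfp280d has none of the marked motifs.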

How the data were processed

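CHD7 ChIP and input libraries of sorted crest cells were analysed; the H3K27ac libraries were not used. Per the submitters' processing notes, the build was mm10 and the tools include MACS2 2.1.2, Bowtie2 2.3.3.1, bcl2fastq 2.18.0.12 and Picard. The deposited files are peak lists called by the authors on single libraries, with a score, the fold enrichment at the summit (a ratio), and p and q as −log10. The control of the calls is not stated in these sources. No read counts were at hand, so depth is unknown and counting error could not be given.

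Summit rows that share an interval were counted as 1 peak, which took the highest fold of its summits, and peaks on other sequences were dropped. Overlap meant 1 bp. Genes came from RefSeq tables of GRCm38.p6, whose coordinates are those of mm10; 21772 protein-coding genes were used and 111 on unplaced sequence were left out. The gene table gives no strand, so gene ends were the main measure, and starts came from the promoter table. A region was assigned to the nearest gene end within 100 kb. Width is the mean over the libraries. Clusters are runs of 3 or more regions no more than 10 kb apart.

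Library values were compared by the exact permutation test. All else is description. Named were the 20 highest regions at gene ends, the 15 highest elsewhere, the 10 with most summits, the 10 widest, the 10 largest clusters, the 10 genes with most regions, the 5 highest left out, Chd7, and from each of 23 lists (496 genes) 2 to 4 members of highest percentile and up to 3 without a region; the text gives those the results turn on, and some list members are not reported here. Members, lists and rules were chosen with earlier results of these data known. The steps were tested on simulated data. Python 3.11.15, pandas 2.3.3, NumPy 2.4.6, SciPy 1.17.1 and Matplotlib 3.10.9 were used.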

Additional observations from a re-analysis of the deposited data

How the results depend on the processing

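The 3 differences between CHD7 and input libraries kept their direction under every alternative run. The shared number of the libraries is the only link between them, and with 2 pairs it could not be checked. With that number as a replicate block, the differences were 357 bp in width, -4.84 percentage points in peaks with several summits and 39.9 points in peaks near gene ends, each with an exact sign-flip p of 0.5, the smallest possible. With peaks of −log10 q 10 or more they were 547 bp, -1.44 and 58.8 points. Values of the regions moved with the threshold. At a −log10 q of 10 or more, and with the 10000 peaks of highest −log10 q in each library, there were 2967 and 6199 regions, 64.7% and 63.0% near gene ends, 16.8% and 15.7% with several summits, median widths of 743 and 697 bp, 3.00% and 2.74% in clusters, and 10.52% and 20.1% of genes with a region at an end. With 1 library left out, the ranges were 26601 to 31556 regions, 42.8% to 47.2% near gene ends, 13.8% to 15.1% with several summits, 462 to 468 bp, 14.8% to 17.4% in clusters and 49.0% to 51.1% of genes. With gene ends within 500 bp and 2.5 kb, 47.0% and 57.3% of regions lay near an end and 40.9% and 48.4% of genes had one. Several summits in either library were found in 33.1% of regions. The median width was 559.5 bp with an overlap of 50% and 682 bp for merged extents. Clusters held 2.34% of regions with a 5 kb limit and 28.97% with 25 kb. Of the 23 gene lists, 17 stayed on the same side of the background with a −log10 q of at least 10, 18 without CHD7 library 1, 20 without library 2 and 21 at each other distance. Lists that changed side without a library were cardiac crest and outflow tract, WNT and neuron and ganglion (either library), and arch patterning and glia and melanocyte precursors (library 1). With a −log10 q of at least 10 they were neural crest specifiers, guidance, BMP and TGF-beta, NOTCH, smooth muscle and matrix, and glia and melanocyte precursors. At 500 bp they were guidance and NOTCH, and at 2.5 kb WNT and glia and melanocyte precursors. The causes of these shifts were not tested, beyond the fewer peaks or libraries that each alternative leaves.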

Other observations

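The X chromosome had few regions for its number of genes. Of its 963 protein-coding genes, 113 (11.7%) had a CHD7 region at an end, against 33.7% (chromosome 7) to 53.7% (chromosome 18) of the genes of single autosomes. The regions it had ranked no lower, with a median percentile of 62.0, and autosomal medians ran from 56.9 to 61.3. The Y chromosome had 14 regions, none at the end of a protein-coding gene.

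Genes of the long noncoding class had single regions of high rank away from protein-coding ends. Gm31485 had folds of 8.39 and 9.12, 15.04 kb from Macroh2a1, which encodes a histone variant of silent chromatin. Gm34739 had 6.96 and 7.52, and Gm10190 had 6.78 and 6.42 with 2 summits, 19.5 kb from Sos1, a RAS activator gene. These were picked for their rank after their values were seen.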
